A study of Homo sapiens with 13 samples.

Results

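The late response to Src activation in MCF10A-Src cells was compared with the early one, that is, gene expression at 36 h of tamoxifen with expression at 4 h. The comparison took every gene row of the time-course table that reached 1 FPKM (the authors' measure of level, fragments per length of transcript and per size of library) in at least 1 of the 2 libraries at 4 h or the 2 at 36 h. These were 15106 of 38369 rows, or 39.4%. Of them 15098 could be tested, since 8 lacked the authors' status flag for a computable value. The rows comprised 3642 lincRNA rows (long intergenic RNAs, named by a neighbouring gene) and 11464 others, of which 238 had no symbol and 477 several symbols. The rule used the level only, and no fold change. The highest FPKM was 1.00 in the row just inside the threshold and 0.999 in the row just outside.

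The series profiles polyA-selected RNA along the transformation of MCF10A-Src cells and in MCF10A cells over-expressing a lincRNA. MCF10A is a non-tumorigenic human breast epithelial line, although the labels list its cell type as breast cancer. In the MCF10A-Src derivative an inducible form of the oncogene v-Src, fused to the hormone-binding part of the oestrogen receptor, is switched on by tamoxifen. The time course holds 6 of the series' 13 samples, with a single library each at 0 h and 12 h and a pair of libraries each at 4 h and 36 h. All were the same inducible line, kept in Ham's F12/DMEM with equine serum, hydrocortisone, cholera toxin, EGF and insulin, and all but the 0 h sample received tamoxifen. No library without tamoxifen was kept for 4 h or 36 h, so Src activation and time in culture cannot be told apart in any value below. The labels do not say whether replicates came from separate cultures. The spread that the p-values rest on is therefore that between libraries and may be technical.

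Src is a tyrosine kinase at the inner face of the cell membrane. It phosphorylates focal adhesion, junction and cytoskeletal proteins and feeds the RAS-ERK, PI3K-AKT and STAT3 pathways. In mammary epithelial cells its sustained activity is known for loosening junctions, for driving secretion of cytokines and proteases, and for growth without anchorage. Early transcription after such a signal typically comprises immediate early factors and cytokines, whereas later transcription reflects secondary factors, metabolism and cell state.

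The libraries held about 18480200 and 23346500 fragments at 4 h and 24024300 and 12576900 at 36 h. The 10 largest rows took 7.3% and 8.7% of the fragments at 4 h and 11.4% and 13.2% at 36 h. Scaling by trimmed means of M-values (TMM) allows for this, and its factors were 1.06 and 1.03 at 4 h against 0.897 and 0.848 at 36 h. Pearson's r between the log2 levels of the 2 libraries, across genes, was 0.978 at 4 h and 0.990 at 36 h. The median absolute log2 difference between them was 0.246 and 0.160. Of 10 breast epithelial markers, 9 were measured, with summed levels of 6475 FPKM at 4 h and 2763 FPKM at 36 h (means of 2 libraries). Markers of other cell types were sparse, and 2 of 6 immune, 1 of 7 fibroblast, 1 of 4 endothelial, 1 of 3 neuronal and none of 3 adipocyte markers reached the level threshold with a row of their own. Among the immune markers PTPRC, CD3E and HBB stayed under it, while CD68, a lysosomal protein also made outside blood cells, stood at 11.2 and 9.93 CPM at 4 h and 88.8 and 47.6 CPM at 36 h (log2 2.70) and CD14 had a log2 fold change of 0.82, a call lost without 36 h replicate 2. Summed levels of the immune list were 14.1 and 55.5 FPKM at 4 h and 36 h, and those of the fibroblast list, which rest on decorin (DCN), 19.7 and 67.7 FPKM. The part of other cells in the results was not tested. The SRC row, which the authors' counting may share with the transgene, stood at 29.03 and 19.8 CPM at 4 h and 14.5 and 11.5 CPM at 36 h, and at 19.4 CPM at 0 h and 24.1 CPM at 12 h. It was 1.86-fold lower at 36 h (edgeR log2 fold change -0.90, SE 0.24, adjusted p = 0.020), a call not held without 36 h replicate 2 or with a correction for GC content. In bulk RNA, fewer cells of a kind and less RNA per cell cannot be told apart.

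The late time point differed widely from the early one. By edgeR's quasi-likelihood test on fragment counts, with Benjamini-Hochberg adjustment over all rows, 6172 rows (40.9% of 15098) differed at an adjusted p under 0.05. Of these 2958 were higher at 36 h (19.6%) and 3214 lower (21.3%). In 5195 rows (34.4%) both 36 h libraries lay above both 4 h libraries, and in 5711 (37.8%) both lay below. At least a 2-fold rise was called in 1560 rows (10.3%) and at least a 2-fold fall in 1511 (10.0%). On the TMM scale large rises outnumbered large falls: 521 rows rose by 4-fold or more (3.45%) and 258 fell by as much (1.71%). These counts were not repeated under other scalings. A row near absent at either time entered through its level at the other time alone. The median log2 fold change over all rows was -0.04, with the 5th and 95th percentiles at -1.48 and 1.77. Leaving out 36 h replicate 1 left 1796 rows higher and 1772 lower, and leaving out 36 h replicate 2 left 1801 and 1581. Scaling by library total alone moved the median to -0.30, and 1865 rows were then higher and 4850 lower. Fold changes below are relative to the TMM scale. Gene lists are described by the number of measured members called in each direction, to be read beside the 19.6% higher and 21.3% lower over all rows. List counts that moved by over 1.5 times under an alternative are given with that alternative. Counts of 3 or fewer are too small for this and are given alone, as 45 of 59 such counts moved by over 1.5 times under at least 1 alternative.

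**Figure D1:**
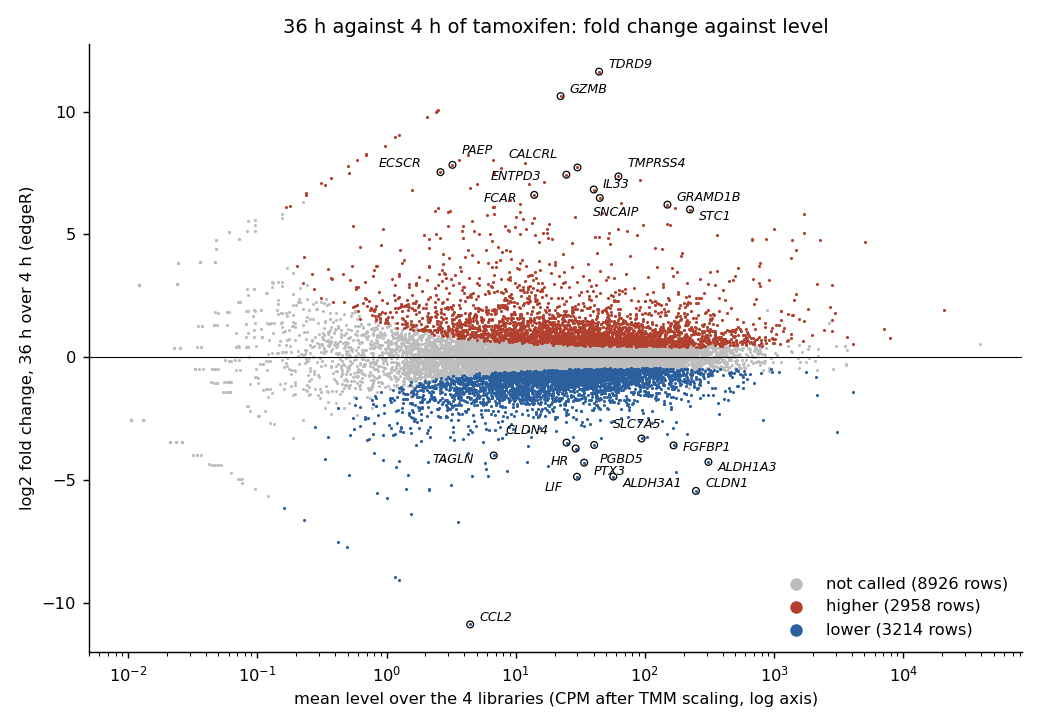
Log2 fold change of 36 h over 4 h (vertical) against the mean level over the 4 libraries in CPM after TMM scaling (horizontal, log axis), 1 point per row of the 15098 tested, with rows called higher in red, called lower in blue and not called in grey. The ringed genes are the 12 largest rises and 12 largest falls among genes with a mean of 10 FPKM or more at their higher time, from TDRD9 at the top to CCL2 at the bottom. Both are near absent at 1 time, so that their fitted values depend on the prior count and are no bound.

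The 12 genes with the largest rises include those of secreted proteins, receptors and surface enzymes, and all but GRAMD1B and STC1 stood under 2 CPM in both 4 h libraries. Levels are given as CPM, fragment counts scaled to library size with the TMM factors, the scale on which the fold changes were fitted. PAEP, which encodes the secreted lipocalin glycodelin, had 1 fragment at 4 h and 192 fragments at 36 h, summed over the libraries of each time, a ratio of 264 (95% interval 46.8 to 10465, counting error only). ECSCR, a surface protein known from endothelial cells, had 1 fragment at 4 h and 158 fragments at 36 h, summed over the libraries of each time, a ratio of 217 (95% interval 38.4 to 8622, counting error only). Both were close to absent early and measurable in each late library. CALCRL, the receptor subunit shared by adrenomedullin and calcitonin gene-related peptide, stood at 0.156 and 0.380 CPM at 4 h and 53.6 and 65.98 CPM at 36 h (edgeR log2 fold change 7.72, SE 0.34, adjusted p = 8.6e-06). ENTPD3, an ectoenzyme that hydrolyses extracellular nucleotides, stood at 0.260 and 0.296 CPM at 4 h and 43.8 and 54.2 CPM at 36 h (edgeR log2 fold change 7.43, SE 0.30, adjusted p = 6.2e-06). TMPRSS4, a membrane-anchored serine protease, stood at 0.935 and 0.592 CPM at 4 h and 120.5 and 127 CPM at 36 h (edgeR log2 fold change 7.36, SE 0.26, adjusted p = 4.5e-06). In these genes the libraries of the 2 times did not overlap, as the rule that picked the 12 rises required.

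IL33, an alarmin cytokine of the interleukin-1 family, stood at 0.623 and 0.761 CPM at 4 h and 77.1 and 82.2 CPM at 36 h (edgeR log2 fold change 6.83, SE 0.24, adjusted p = 4.5e-06). Its single 0 h and 12 h libraries held 0.265 CPM at 0 h and 23.2 CPM at 12 h, so the 12 h level lay between the others. GRAMD1B, which moves cholesterol from the plasma membrane to the endoplasmic reticulum, stood at 3.90 and 4.06 CPM at 4 h and 311 and 279 CPM at 36 h (edgeR log2 fold change 6.21, SE 0.19, adjusted p = 4.5e-06). STC1, the secreted glycoprotein stanniocalcin 1, stood at 7.22 and 6.42 CPM at 4 h and 467 and 413 CPM at 36 h (edgeR log2 fold change 6.01, SE 0.19, adjusted p = 4.5e-06). STC1 was the most abundant of the 12 largest rises by CPM at 36 h, and GRAMD1B came next. The remaining genes of this group were FCAR, an Fc receptor for immunoglobulin A (log2 6.61), SNCAIP, a synuclein partner (log2 6.48), the helicase gene TDRD9 and the granule protease gene GZMB. Promoters of GZMB and PAEP are shown because they hold the letters of AP-1, a factor family known to act downstream of Src. The matched windows of TDRD9, CALCRL, ECSCR, ENTPD3, IL33 and SNCAIP hold none. The sequences are RefSeq promoters of GRCh38.p14, 250 bases before to 50 bases after a start, 5′ to 3′, with TGANTCA matches in capitals.
GZMB promoter (chr14:24634141-24634440, minus strand): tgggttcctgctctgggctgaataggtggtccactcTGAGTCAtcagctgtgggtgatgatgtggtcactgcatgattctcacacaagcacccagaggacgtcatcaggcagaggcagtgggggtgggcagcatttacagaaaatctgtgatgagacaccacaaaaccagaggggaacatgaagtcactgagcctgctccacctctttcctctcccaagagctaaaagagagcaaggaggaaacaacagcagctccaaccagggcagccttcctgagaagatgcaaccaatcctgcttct
PAEP promoter (chr9:135561506-135561805, plus strand): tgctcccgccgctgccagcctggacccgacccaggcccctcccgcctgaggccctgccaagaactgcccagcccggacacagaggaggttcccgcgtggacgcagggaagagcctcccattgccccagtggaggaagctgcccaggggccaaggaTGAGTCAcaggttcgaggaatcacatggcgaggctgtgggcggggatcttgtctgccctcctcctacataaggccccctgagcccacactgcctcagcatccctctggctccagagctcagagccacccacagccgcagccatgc

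TGANTCA, searched on both strands (it reads alike on both), occurred in 12.7% of the 338 promoter windows of genes that rose by 4-fold or more. It occurred in 10.3% of the 195 windows of genes that fell by as much, in 5.3% of the 12909 windows of all genes tested and in 7.7% of the 35116 windows of the whole table. At a 2-fold limit the shares were 8.8% of 1210 windows of rising genes and 5.8% of 1311 windows of falling genes. The median GC content of the windows was 59% for genes that rose by 4-fold or more, 63.3% for those that fell by as much and 64.7% for all tested. Its part in the shares was not tested. The promoter table matched 8760 of 10688 genes (82.0%), and a match describes letters, not binding.

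The largest falls included genes of junctions, cytokines and retinoid and aldehyde metabolism, and most had been well expressed at 4 h. CLDN1, the tight-junction strand protein claudin 1, stood at 491 and 479 CPM at 4 h and 10.2 and 12.3 CPM at 36 h (edgeR log2 fold change -5.44, SE 0.19, adjusted p = 4.5e-06). Its levels of 72.3 CPM at 0 h and 31.7 CPM at 12 h both lay below the 4 h libraries. LIF, a cytokine of the interleukin-6 family that activates STAT3, stood at 51.4 and 63.8 CPM at 4 h and 2.03 and 1.90 CPM at 36 h (edgeR log2 fold change -4.86, SE 0.23, adjusted p = 1.1e-05). ALDH3A1, an aldehyde dehydrogenase, stood at 99.2 and 121 CPM at 4 h and 3.72 and 3.89 CPM at 36 h (edgeR log2 fold change -4.86, SE 0.21, adjusted p = 7.4e-06). ALDH1A3, the dehydrogenase that makes retinoic acid from retinal, stood at 534 and 645 CPM at 4 h and 35.8 and 25.2 CPM at 36 h (edgeR log2 fold change -4.26, SE 0.23, adjusted p = 1.7e-05). Each of the 4 genes was lower in both late libraries than in either early library, as the rule that picked the 12 falls required. PTX3, the secreted pattern-recognition protein pentraxin 3, differed strongly between the 4 h libraries, at 34.4 and 94.2 CPM at 4 h and 2.70 and 4.08 CPM at 36 h (edgeR log2 fold change -4.29, SE 0.50, adjusted p = 5.8e-04). Its groups did not overlap, which the same rule required. FGFBP1, a carrier that releases fibroblast growth factors from the matrix, stood at 318 and 297 CPM at 4 h and 25.4 and 25.8 CPM at 36 h (edgeR log2 fold change -3.59, SE 0.16, adjusted p = 8.6e-06). TAGLN, an actin-binding protein regulated by serum response factor, stood at 16.2 and 9.34 CPM at 4 h and 0.869 and 0.664 CPM at 36 h (edgeR log2 fold change -3.998, SE 0.39, adjusted p = 2.5e-04). CCL2, which attracts monocytes, had 379 fragments at 4 h and 0 fragments at 36 h, summed over the libraries of each time, at least 92.02-fold lower with 3 fragments over the group taken as the limit of a count of 0. CLDN4 (log2 -3.47), the corepressor gene HR (log2 -3.72), the transposase-derived PGBD5 (log2 -3.57) and the amino acid transporter SLC7A5 (log2 -3.31) completed the group. The deposited locus of a row can span several genes (chr7:73148726-73668738 in hg19 for CLDN4), so that neighbours may share its fragments.

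**Figure D2:**
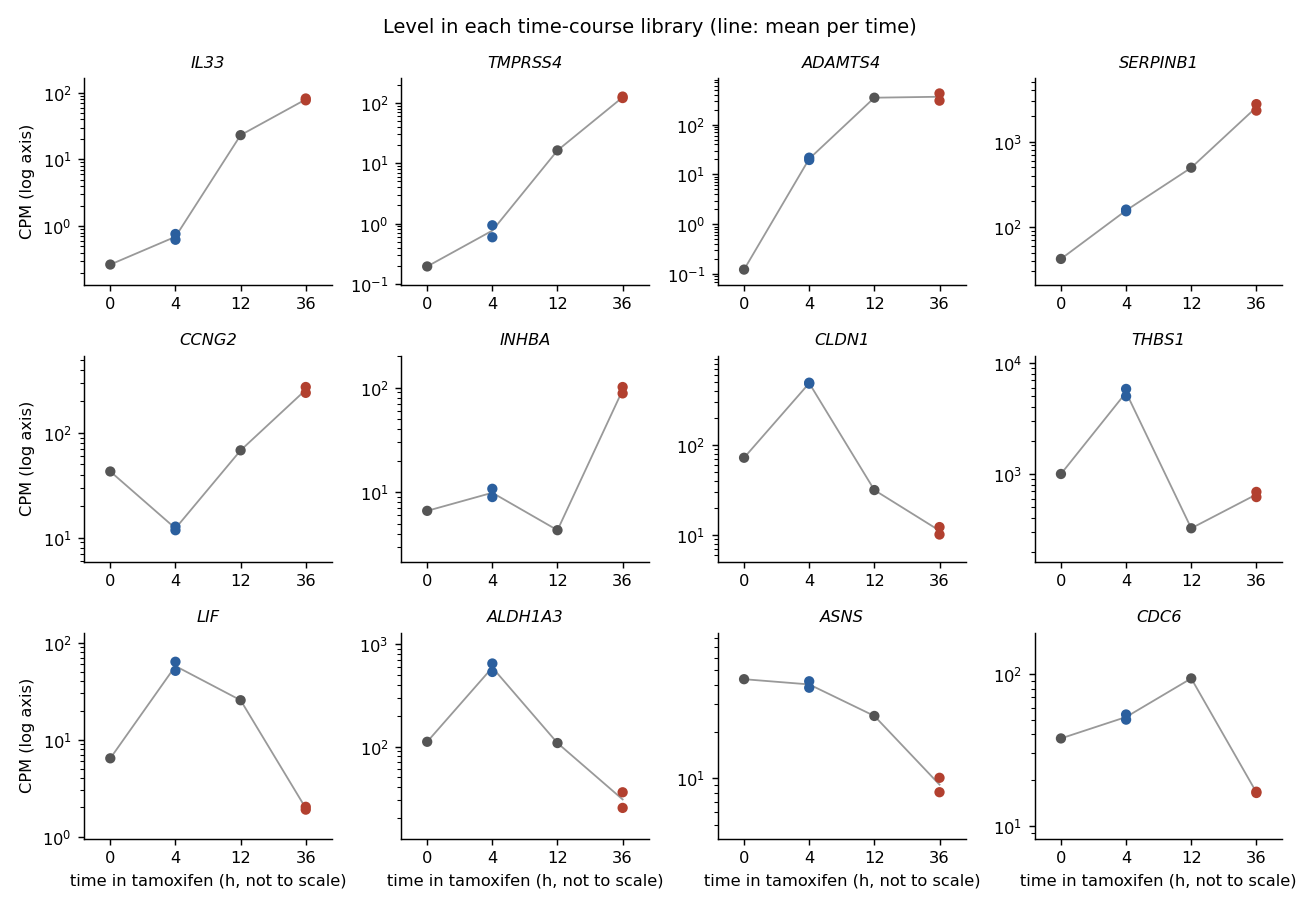
Level of 12 genes in each of the 6 time-course libraries (CPM after TMM scaling, log axis) against time in tamoxifen (0, 4, 12 and 36 h, not to scale), with 1 point per library and a line through the mean of each time. The 4 h and 36 h points do not overlap for any of the 12 genes, which for IL33, TMPRSS4, CLDN1, LIF and ALDH1A3 was a condition of their choice. Over all rows tested, both 36 h libraries lay above both 4 h libraries in 34.4% and below in 37.8%. CLDN1, THBS1, LIF and ALDH1A3 have their highest point at 4 h, and CDC6 has its highest at 12 h.

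Acute-phase and complement genes mostly rose. Of 16 measured genes on a list of 24, 12 were higher at 36 h and 1 lower, with a median log2 fold change of 1.82, against 19.6% higher, 21.3% lower and a median of -0.04 over all rows. The acute-phase response is best known from liver, but epithelia make many of these proteins under STAT3 and NF-kB. HP, which encodes the haemoglobin scavenger haptoglobin, stood at 0.519 and 0.718 CPM at 4 h and 25.2 and 21.7 CPM at 36 h (edgeR log2 fold change 5.22, SE 0.28, adjusted p = 1.7e-05). SERPINA1, the elastase inhibitor alpha-1 antitrypsin, stood at 215 and 154 CPM at 4 h and 1589 and 1678 CPM at 36 h (edgeR log2 fold change 3.15, SE 0.21, adjusted p = 4.5e-05). SAA1, serum amyloid A1, which has a near-identical neighbour in SAA2, stood at 137 and 141 CPM at 4 h and 686 and 693 CPM at 36 h (edgeR log2 fold change 2.31, SE 0.15, adjusted p = 4.3e-05). CD55, which protects cells from complement, stood at 86.99 and 108 CPM at 4 h and 849.6 and 876 CPM at 36 h (edgeR log2 fold change 3.14, SE 0.18, adjusted p = 2.3e-05). Complement components C1R (log2 1.99) and CFI (log2 2.74) rose too. In each of these 6 genes both 36 h libraries lay above both 4 h libraries, as in 34.4% of all rows. HP, SERPINA1, SAA1, CD55 and C1R were named for their small p, and CFI after its value was seen.

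S100 genes, which encode small calcium-binding proteins, were measured in 15 of 16 cases, with 8 higher and 1 lower (median log2 1.06). The rise was not limited to the calprotectin pair S100A8 and S100A9. S100A7, psoriasin, a near-identical copy of S100A7A, stood at 0.675 and 0.634 CPM at 4 h and 10.1 and 9.20 CPM at 36 h (edgeR log2 fold change 3.88, SE 0.30, adjusted p = 8.6e-05). S100P stood at 5.09 and 7.44 CPM at 4 h and 28.7 and 29.8 CPM at 36 h (edgeR log2 fold change 2.22, SE 0.23, adjusted p = 3.6e-04). S100A10, the annexin A2 partner that binds plasminogen, stood at 102 and 91.8 CPM at 4 h and 253 and 296 CPM at 36 h (edgeR log2 fold change 1.50, SE 0.16, adjusted p = 3.9e-04). S100A2, a basal epithelial member, went the other way, with 762 and 1104 CPM at 4 h and 416 and 489 CPM at 36 h (edgeR log2 fold change -1.04, SE 0.21, adjusted p = 0.0063), although limma on log2 FPKM did not call it. Summed over the list, S100 levels were 6318 FPKM at 4 h and 60037 FPKM at 36 h (means of 2 libraries), and S100A8 and S100A9 made up most of the sum at 36 h.

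Cytokines and chemokines split between rises and falls. Of 11 measured chemokines, 4 were higher and 4 lower, and of 25 NF-kB subunits and targets 10 were higher and 5 lower (median log2 0.36). The number called lower came to 2 under the GC-corrected fit or in the authors' deposited table and 8 under scaling by library total alone. CXCL3, a neutrophil attractant close in sequence to CXCL1 and CXCL2, stood at 1.97 and 2.83 CPM at 4 h and 24.6 and 24.4 CPM at 36 h (edgeR log2 fold change 3.34, SE 0.24, adjusted p = 7.3e-05). CCL20, which attracts dendritic cells and lymphocytes, stood at 20.9 and 30.2 CPM at 4 h and 115 and 144 CPM at 36 h (edgeR log2 fold change 2.34, SE 0.22, adjusted p = 2.4e-04). CSF3, granulocyte colony-stimulating factor, stood at 30.1 and 40.1 CPM at 4 h and 122 and 116 CPM at 36 h (edgeR log2 fold change 1.76, SE 0.18, adjusted p = 3.5e-04). These 3 secreted factors were higher in both late libraries, as were 34.4% of all rows. IL6 went the other way and stood at 6.70 and 11.2 CPM at 4 h and 0.483 and 0 CPM at 36 h (edgeR log2 fold change -4.84, SE 0.61, adjusted p = 8.0e-04), with 0.494 CPM at 0 h and 6.93 CPM at 12 h. IL1R2, the decoy receptor for interleukin-1, stood at 2.49 and 3.21 CPM at 4 h and 89.5 and 80.7 CPM at 36 h (edgeR log2 fold change 4.89, SE 0.22, adjusted p = 8.6e-06), and IL1A was 1.85-fold higher (edgeR log2 fold change 0.89, SE 0.14, adjusted p = 0.0024). IL18 was 2.67-fold lower (edgeR log2 fold change -1.42, SE 0.20, adjusted p = 0.0012). Among JAK, STAT, SOCS and interleukin-6 family genes, 6 of 29 were higher (20.7%) and 8 lower (27.6%), beside 19.6% and 21.3% over all rows. The ligands LIF, IL6 and CLCF1 (log2 -2.12) fell, whereas the receptor LIFR rose, with 36.98 and 42.97 CPM at 4 h and 86.4 and 103 CPM at 36 h (edgeR log2 fold change 1.24, SE 0.17, adjusted p = 0.0013). That count of higher calls was 3 under scaling by library total alone or without 36 h replicate 1.

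Interferon-stimulated genes also divided, with 9 of 32 higher, 11 lower and a median log2 of -0.06. ISG20, an exonuclease against viral RNA, stood at 2.29 and 2.83 CPM at 4 h and 36.6 and 38.9 CPM at 36 h (edgeR log2 fold change 3.87, SE 0.22, adjusted p = 2.4e-05). IFITM1 (log2 1.98) and IFITM3 (log2 1.25), close relatives that block virus entry, rose as well. GBP1, a guanylate-binding protein, stood at 85.9 and 103 CPM at 4 h and 16.6 and 13.4 CPM at 36 h (edgeR log2 fold change -2.65, SE 0.20, adjusted p = 7.3e-05). IRF1, the transcription factor upstream of several such genes, was 3.33-fold lower (edgeR log2 fold change -1.73, SE 0.22, adjusted p = 8.1e-04), and so was IFIT5 (log2 -1.55). With other settings, lower calls numbered 5 without 36 h replicate 1 and 7 without 36 h replicate 2 or in the authors' deposited table. Of 11 measured genes of MHC class I and antigen presentation 4 rose, B2M by 1.92-fold and HLA-E by 1.84-fold among them, while their regulator NLRC5 was 3.69-fold lower. The count called higher was 2 under scaling by library total alone, without 36 h replicate 2 or in the authors' deposited table.

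Genes of pericellular proteolysis changed in both directions, with rises in the majority. In the urokinase, tissue factor and coagulation list 10 of 18 measured genes were higher and 6 lower (median log2 1.12). SERPINE2, the inhibitor protease nexin 1, stood at 50.9 and 40.4 CPM at 4 h and 394 and 355 CPM at 36 h (edgeR log2 fold change 3.04, SE 0.18, adjusted p = 2.9e-05). THBD, thrombomodulin, which turns thrombin towards anticoagulant protein C, stood at 36.9 and 25.2 CPM at 4 h and 223 and 268 CPM at 36 h (edgeR log2 fold change 2.98, SE 0.22, adjusted p = 7.7e-05). F3, tissue factor, fell, with 109 and 102 CPM at 4 h and 29.7 and 32.99 CPM at 36 h (edgeR log2 fold change -1.75, SE 0.16, adjusted p = 2.1e-04), and PLAT, tissue plasminogen activator, was 4.40-fold lower (edgeR log2 fold change -2.14, SE 0.18, adjusted p = 1.4e-04). Of the ADAM and ADAMTS proteases 8 of 12 were higher and 2 lower (median log2 0.97). ADAM19 stood at 8.05 and 6.63 CPM at 4 h and 296 and 310.2 CPM at 36 h (edgeR log2 fold change 5.37, SE 0.19, adjusted p = 4.5e-06). ADAMTS4 and ADAMTS9, which cleave the proteoglycans aggrecan and versican, both rose. ADAMTS4 stood at 19.5 and 21.7 CPM at 4 h and 420.5 and 301 CPM at 36 h (edgeR log2 fold change 4.13, SE 0.22, adjusted p = 1.6e-05) and ADAMTS9 at 30.2 and 27.6 CPM at 4 h and 345 and 301 CPM at 36 h (edgeR log2 fold change 3.48, SE 0.17, adjusted p = 1.2e-05). In the single 0 h and 12 h libraries ADAMTS4 held 0.124 CPM at 0 h and 345 CPM at 12 h, so its 12 h level was already within the range of 36 h.

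Of 12 measured matrix metalloproteinases and their inhibitors 4 were higher and 3 lower. MMP14, the membrane-anchored collagenase that activates MMP2, stood at 91.5 and 75.8 CPM at 4 h and 443 and 442 CPM at 36 h (edgeR log2 fold change 2.40, SE 0.16, adjusted p = 5.2e-05), and the inhibitor TIMP1 at 228 and 185 CPM at 4 h and 557 and 612 CPM at 36 h (edgeR log2 fold change 1.50, SE 0.17, adjusted p = 4.7e-04). TIMP3 was 5.17-fold lower (edgeR log2 fold change -2.37, SE 0.26, adjusted p = 4.6e-04). Matricellular genes were divided, 9 of 19 higher and 6 lower. THBS1, thrombospondin 1, fell, with 5837 and 5013 CPM at 4 h and 689.7 and 619.7 CPM at 36 h (edgeR log2 fold change -3.05, SE 0.19, adjusted p = 3.1e-05). TNC, tenascin C, rose, with 201 and 138 CPM at 4 h and 1606 and 1106 CPM at 36 h (edgeR log2 fold change 3.003, SE 0.26, adjusted p = 1.5e-04). SPP1, osteopontin, had 3 fragments at 4 h and 308 fragments at 36 h, summed over the libraries of each time, a ratio of 141 (95% interval 47.8 to 687, counting error only). Thrombospondin 1 and tenascin C, both adhesion-modulating matrix proteins, moved in opposite directions.

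Receptors and components of the basement membrane rose more often than they fell. Of 19 measured integrin and integrin-linked genes 7 were higher (36.8%) and 2 lower (10.5%), and of 15 laminin and hemidesmosome genes 5 were higher (33.3%) and 3 lower (20%). Over all rows 19.6% were higher and 21.3% lower, so the share of laminin and hemidesmosome falls was near that of all rows. ITGA5, the fibronectin receptor chain, stood at 98.2 and 88.9 CPM at 4 h and 843 and 754 CPM at 36 h (edgeR log2 fold change 3.09, SE 0.16, adjusted p = 1.7e-05). ITGA2, a collagen receptor chain, was 2.28-fold higher (edgeR log2 fold change 1.19, SE 0.16, adjusted p = 0.0011). LAMB3, a chain of laminin 332, stood at 1392 and 1552 CPM at 4 h and 4489 and 3820.4 CPM at 36 h (edgeR log2 fold change 1.50, SE 0.18, adjusted p = 6.0e-04). LAMB1 (log2 1.89), COL4A1 (log2 1.93) and COL17A1 (log2 1.09) rose as well. COL6A3, a chain of collagen VI, was 8.88-fold higher (edgeR log2 fold change 3.15, SE 0.23, adjusted p = 6.6e-05). The promoters of ITGA5 and LAMB3, both receptors or ligands of the basal cell surface, are shown because they hold the AP-1 letters TGANTCA, in capitals in the RefSeq windows of GRCh38.p14. The windows of COL4A1, LAMB1, COL17A1, ITGA2 and ITGB1 and the other windows of LAMB3 hold none.
ITGA5 promoter (chr12:54419217-54419516, minus strand): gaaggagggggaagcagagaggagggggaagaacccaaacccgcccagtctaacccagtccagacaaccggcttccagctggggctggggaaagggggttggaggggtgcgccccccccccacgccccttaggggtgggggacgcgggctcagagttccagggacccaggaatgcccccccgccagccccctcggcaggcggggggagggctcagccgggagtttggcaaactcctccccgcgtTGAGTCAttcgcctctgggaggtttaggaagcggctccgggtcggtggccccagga
LAMB3 promoter (chr1:209651325-209651624, minus strand): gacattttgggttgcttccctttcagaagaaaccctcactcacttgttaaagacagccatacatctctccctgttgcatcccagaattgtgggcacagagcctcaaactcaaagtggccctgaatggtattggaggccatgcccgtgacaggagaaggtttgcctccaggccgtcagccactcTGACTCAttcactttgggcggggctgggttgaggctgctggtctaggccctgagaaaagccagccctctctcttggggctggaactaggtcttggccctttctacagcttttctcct

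Of 27 measured genes of the TGF-beta, activin and BMP pathways, 12 were higher and 5 lower. On the TGF-beta, activin and BMP list, the number called higher was 7 without 36 h replicate 2. For the TGF-beta, activin and BMP list, lower calls numbered 3 without 36 h replicate 1 or without 36 h replicate 2 and 8 under scaling by library total alone or without 4 h replicate 1. INHBA, the activin A subunit, stood at 8.98 and 10.8 CPM at 4 h and 101 and 87.9 CPM at 36 h (edgeR log2 fold change 3.26, SE 0.19, adjusted p = 2.9e-05), and at 6.63 CPM at 0 h and 4.34 CPM at 12 h. BMP2 was 6.50-fold higher (edgeR log2 fold change 2.70, SE 0.21, adjusted p = 8.5e-05) and TGFB3 3.48-fold higher (edgeR log2 fold change 1.80, SE 0.20, adjusted p = 4.7e-04). ID3, a target that BMP signalling induces, stood at 38.4 and 46.8 CPM at 4 h and 7.39 and 6.16 CPM at 36 h (edgeR log2 fold change -2.64, SE 0.21, adjusted p = 1.0e-04). The 3 ligands rose and ID3 fell, and a link between them was not tested.

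Tight-junction genes and basal keratins mostly fell. Of 19 measured tight-junction genes and their regulators 12 were lower and 3 higher (median log2 -1.06), and of 13 basal and stress keratins 9 were lower and 3 higher (median log2 -1.28). That count of lower calls was 4 in the authors' deposited table. Other junction lists gave 4 lower and 1 higher of 11 desmosome genes (median log2 0.04) and 6 lower and 2 higher of 14 cadherins and catenins (median log2 -0.31). In the desmosome list, lower calls came to 2 by limma on log2 FPKM, without 36 h replicate 1 or without 36 h replicate 2. On the cadherins and catenins list, the number called lower was 3 without 36 h replicate 2. OCLN, the junction protein occludin, stood at 92.1 and 118 CPM at 4 h and 26.1 and 23.1 CPM at 36 h (edgeR log2 fold change -2.09, SE 0.19, adjusted p = 1.8e-04). OVOL1, a zinc finger repressor that maintains epithelial identity, stood at 9.56 and 12.5 CPM at 4 h and 0.483 and 0.664 CPM at 36 h (edgeR log2 fold change -4.32, SE 0.34, adjusted p = 9.4e-05), and GRHL3, a grainyhead factor of barrier formation, at 55.98 and 45.3 CPM at 4 h and 7.0 and 3.41 CPM at 36 h (edgeR log2 fold change -3.23, SE 0.31, adjusted p = 2.5e-04). All 3 were lower in both late libraries, as were 37.8% of all rows. Among keratins, KRT81, normally of hair, stood at 1313 and 1495 CPM at 4 h and 231 and 242 CPM at 36 h (edgeR log2 fold change -2.57, SE 0.17, adjusted p = 4.4e-05). KRT17 was 2.91-fold lower (edgeR log2 fold change -1.54, SE 0.16, adjusted p = 3.5e-04) and KRT5 2.67-fold lower (edgeR log2 fold change -1.42, SE 0.17, adjusted p = 6.2e-04). KRT6C, a wound keratin, was 10.99-fold higher (edgeR log2 fold change 3.46, SE 0.25, adjusted p = 7.1e-05). Keratins are near-identical in parts, and how shared fragments were assigned is not given in the sources used here.

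Of 14 luminal keratins and markers 7 were lower and 1 higher (median log2 -0.83). CD24, a surface mucin-like marker of luminal cells, stood at 299 and 297 CPM at 4 h and 40.2 and 55.7 CPM at 36 h (edgeR log2 fold change -2.64, SE 0.20, adjusted p = 7.4e-05), and KRT8 at 291 and 287 CPM at 4 h and 90.1 and 85.9 CPM at 36 h (edgeR log2 fold change -1.71, SE 0.15, adjusted p = 1.4e-04). CDH1, E-cadherin, was 2.22-fold lower (edgeR log2 fold change -1.15, SE 0.16, adjusted p = 0.0014), and TP63, the transcription factor of basal epithelium, 2.61-fold lower (edgeR log2 fold change -1.39, SE 0.17, adjusted p = 6.9e-04). Of the 9 breast epithelial markers 7 fell, none rose and the median log2 was -1.15. Among 17 factors and markers of epithelial-mesenchymal transition 8 rose and 5 fell. ZEB1 (log2 1.47), ZEB2 (log2 1.92) and TWIST1 (log2 1.78), repressors of epithelial genes, rose. CDH2, N-cadherin, which usually rises in that transition, was 1.76-fold lower (edgeR log2 fold change -0.81, SE 0.18, adjusted p = 0.0099), a call lost without 36 h replicate 2, and SPARC 2.26-fold lower (edgeR log2 fold change -1.18, SE 0.18, adjusted p = 0.0018). On the EMT transcription factors and mesenchymal genes list, the number called higher was 5 without 36 h replicate 1, without 36 h replicate 2 or in the authors' deposited table. For the EMT transcription factors and mesenchymal genes list, lower calls numbered 3 without 36 h replicate 1, without 36 h replicate 2 or in the authors' deposited table. Cornified envelope genes and epidermal protease inhibitors gave 4 higher (23.5%) and 3 lower (17.6%) of 17, shares near the 19.6% and 21.3% over all rows. SERPINB1, an inhibitor of neutrophil proteases, rose, with 159.5 and 152 CPM at 4 h and 2306 and 2749 CPM at 36 h (edgeR log2 fold change 4.02, SE 0.19, adjusted p = 9.4e-06).

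**Figure D3:**
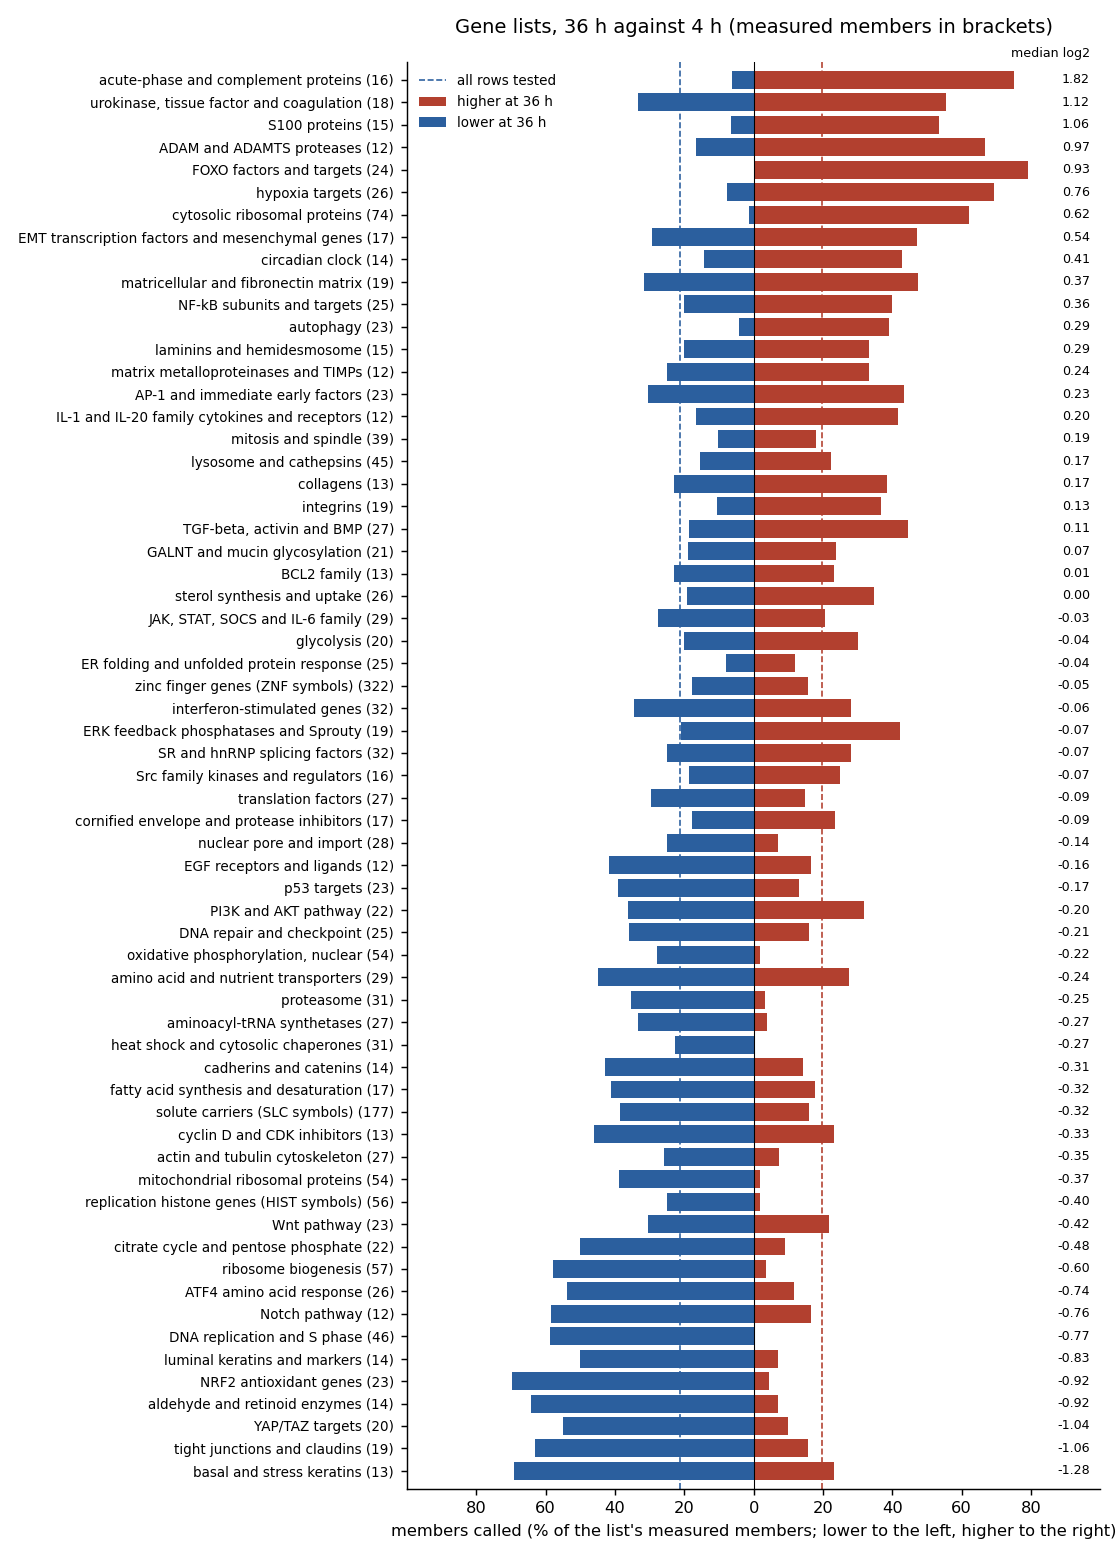
Share of each gene list's measured members called lower (blue, to the left) and higher (red, to the right) at 36 h, for gene lists with 12 or more measured members (1 such list is not shown), with their number in brackets, sorted by median log2 fold change (right column). Dashed lines mark 21.3% lower and 19.6% higher over all 15098 rows. Acute-phase and complement proteins stand at the top with a median of 1.82 and basal and stress keratins at the bottom with -1.28.

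Targets of YAP and TAZ, coactivators that respond to adhesion and actin tension and are linked to Src, mostly fell. Of 20 measured 11 were lower and 2 higher (median log2 -1.04). JUB, the LIM protein Ajuba, stood at 166 and 210.0 CPM at 4 h and 21.5 and 18.2 CPM at 36 h (edgeR log2 fold change -3.24, SE 0.20, adjusted p = 3.1e-05), and AMOTL2, a junctional angiomotin, at 332 and 329 CPM at 4 h and 100.4 and 93.6 CPM at 36 h (edgeR log2 fold change -1.77, SE 0.15, adjusted p = 1.3e-04). CTGF, the matricellular growth factor often used as a readout of the pathway, was 6.65-fold lower (edgeR log2 fold change -2.73, SE 0.31, adjusted p = 4.6e-04) and CYR61 3.85-fold lower (edgeR log2 fold change -1.94, SE 0.30, adjusted p = 0.0019). NT5E, the surface nucleotidase CD73, went against the list and stood at 98.8 and 107 CPM at 4 h and 1396 and 1516 CPM at 36 h (edgeR log2 fold change 3.82, SE 0.17, adjusted p = 8.6e-06). The actin-linked Cdc42 effectors CDC42EP1 (log2 -2.64), CDC42EP4 (log2 -2.03) and CDC42EP2 (log2 -1.74) fell. RHOU, an atypical small GTPase, rose, with 1.45 and 1.69 CPM at 4 h and 83.2 and 101 CPM at 36 h (edgeR log2 fold change 5.86, SE 0.23, adjusted p = 6.2e-06). SRF, the serum response factor, which drives many actin genes, was 3.40-fold lower (edgeR log2 fold change -1.77, SE 0.17, adjusted p = 2.3e-04).

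Of 16 measured Src family kinases and regulators 4 were higher and 3 lower, shares near those over all rows, 19.6% and 21.3%. For the Src family kinases and regulators list, higher calls numbered 1 without 36 h replicate 1 and 2 under scaling by library total alone or without 36 h replicate 2. In the Src family kinases and regulators list, lower calls came to 1 under the GC-corrected fit, 5 under scaling by library total alone and 6 without 4 h replicate 2. PAG1, the membrane adaptor that recruits the Src inhibitor CSK, stood at 10.5 and 11.5 CPM at 4 h and 116 and 92.1 CPM at 36 h (edgeR log2 fold change 3.24, SE 0.19, adjusted p = 2.9e-05), and the family kinase LYN was 2.28-fold lower (edgeR log2 fold change -1.19, SE 0.22, adjusted p = 0.0043). Of 19 ERK feedback genes 8 were higher and 4 lower, DUSP6 at log2 1.92 and DUSP14 at -1.52 among them. Of 12 EGF receptors and ligands 2 rose and 5 fell. EREG, epiregulin, was 4.41-fold higher (edgeR log2 fold change 2.14, SE 0.19, adjusted p = 1.6e-04), NRG1 10.1-fold lower (edgeR log2 fold change -3.34, SE 0.32, adjusted p = 2.4e-04), HBEGF 3.42-fold lower (edgeR log2 fold change -1.77, SE 0.28, adjusted p = 0.0021) and the receptor EGFR 1.98-fold lower (edgeR log2 fold change -0.98, SE 0.19, adjusted p = 0.0050). AP-1 and immediate early factors gave 10 higher and 7 lower of 23. FOSL1, the AP-1 subunit best known from ERK signalling, stood at 51.5 and 38.9 CPM at 4 h and 16.7 and 14.3 CPM at 36 h (edgeR log2 fold change -1.54, SE 0.21, adjusted p = 0.0011), and BATF3 at 1.66 and 2.54 CPM at 4 h and 13.2 and 13.6 CPM at 36 h (edgeR log2 fold change 2.66, SE 0.26, adjusted p = 2.7e-04). In the ERK feedback phosphatases and Sprouty list, higher calls came to 4 under scaling by library total alone or without 36 h replicate 1 and 5 without 36 h replicate 2. On the ERK feedback phosphatases and Sprouty list, the number called lower was 2 without 36 h replicate 1. For the AP-1 and immediate early factors list, higher calls numbered 4 under scaling by library total alone or without 36 h replicate 2 and 5 without 36 h replicate 1.

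Of 22 PI3K and AKT pathway genes 7 rose and 8 fell. PIK3R1, the regulatory subunit of PI3 kinase, stood at 166 and 150.0 CPM at 4 h and 604 and 567 CPM at 36 h (edgeR log2 fold change 1.89, SE 0.15, adjusted p = 1.1e-04), and IRS1, an insulin receptor adaptor, was 3.43-fold lower (edgeR log2 fold change -1.78, SE 0.24, adjusted p = 0.0011). Notch genes gave 2 higher and 7 lower of 12, Wnt genes 5 and 7 of 23, and Eph receptors and ephrins 2 and 5 of 10. The Wnt shares were 21.7% higher and 30.4% lower, beside 19.6% and 21.3% over all rows. FZD4, a Wnt receptor, stood at 8.15 and 8.41 CPM at 4 h and 148 and 142 CPM at 36 h (edgeR log2 fold change 4.13, SE 0.17, adjusted p = 7.3e-06). The secreted Wnt inhibitors DKK1 (log2 -2.55) and SFRP1 (log2 -1.91) fell. EPHA2, a receptor often raised in breast cancer lines, was 2.25-fold lower (edgeR log2 fold change -1.17, SE 0.16, adjusted p = 0.0013). On the PI3K and AKT pathway list, the number called higher was 4 without 36 h replicate 2. For the PI3K and AKT pathway list, lower calls numbered 4 without 36 h replicate 1 and 5 under the GC-corrected fit or without 36 h replicate 2. In the Notch pathway list, lower calls came to 3 under the GC-corrected fit or without 36 h replicate 2 and 4 without 36 h replicate 1. On the Wnt pathway list, the number called lower was 4 without 36 h replicate 2 and 12 under scaling by library total alone.

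FOXO factors and targets mostly rose. FOXO transcription factors are held out of the nucleus by AKT and induce genes of quiescence, starvation and stress resistance. Of 24 measured genes 19 were higher, 0 lower and 5 not called (median log2 0.93). CCNG2, an unconventional cyclin that slows the cell cycle, stood at 12.7 and 11.7 CPM at 4 h and 242 and 275 CPM at 36 h (edgeR log2 fold change 4.40, SE 0.18, adjusted p = 6.5e-06), with 42.8 CPM at 0 h and 68.2 CPM at 12 h. TXNIP, which restrains glucose uptake and thioredoxin, stood at 52.9 and 67.9 CPM at 4 h and 1617 and 1752 CPM at 36 h (edgeR log2 fold change 4.80, SE 0.21, adjusted p = 7.9e-06), and KLF9 at 3.17 and 3.68 CPM at 4 h and 93.6 and 107 CPM at 36 h (edgeR log2 fold change 4.86, SE 0.20, adjusted p = 7.1e-06). KLHL24 (log2 2.82), YPEL5 (log2 1.91) and the repressor BCL6 (log2 1.73) rose too. CTSL1, the lysosomal protease cathepsin L, which is not on that list, stood at 49.1 and 54.6 CPM at 4 h and 1888 and 2016 CPM at 36 h (edgeR log2 fold change 5.23, SE 0.19, adjusted p = 4.5e-06). Its promoter and that of TXNIP are shown because they hold the forkhead letters GTAAACA, searched on both strands. The windows of CCNG2, KLF9, KLHL24, YPEL5 and BCL6 and the other window of TXNIP hold none. The letters occurred in 5.1% of the 1210 windows of genes that rose by 2-fold or more, in 2.1% of the 1311 windows of genes that fell by as much, in 2.7% of the windows of all genes tested and in 3.4% of those of the whole table. At a 4-fold limit the shares were 4.4% of the windows of rising genes and 3.1% of those of falling genes. The median GC content of the windows was 63% for genes that rose by 2-fold or more, 65.7% for those that fell by as much and 64.7% for all tested. Its part in the shares was not tested. Matches are in capitals in the RefSeq windows of GRCh38.p14.
TXNIP promoter (chr1:145996530-145996829, minus strand): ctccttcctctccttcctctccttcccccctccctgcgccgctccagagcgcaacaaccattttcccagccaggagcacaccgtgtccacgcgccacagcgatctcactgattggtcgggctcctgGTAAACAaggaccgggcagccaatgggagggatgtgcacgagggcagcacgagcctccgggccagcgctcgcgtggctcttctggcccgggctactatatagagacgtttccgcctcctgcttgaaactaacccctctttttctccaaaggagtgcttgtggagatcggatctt
CTSL1 promoter (chr9:87725869-87726168, plus strand): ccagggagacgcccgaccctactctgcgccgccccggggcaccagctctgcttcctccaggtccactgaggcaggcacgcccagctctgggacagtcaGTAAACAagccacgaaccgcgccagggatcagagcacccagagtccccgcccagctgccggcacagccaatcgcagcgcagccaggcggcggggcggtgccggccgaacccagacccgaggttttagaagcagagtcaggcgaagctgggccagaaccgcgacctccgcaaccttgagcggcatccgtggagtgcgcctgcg

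Lysosomal cathepsin B, like cathepsin L, rose. CTSB, cathepsin B, stood at 509 and 469 CPM at 4 h and 4222 and 3429 CPM at 36 h (edgeR log2 fold change 2.97, SE 0.19, adjusted p = 4.0e-05). The lysosome list gave 10 higher (22.2%) and 7 lower (15.6%) of 45 (median log2 0.17), shares near the 19.6% and 21.3% over all rows. Autophagy genes gave 9 higher and 1 lower of 23. The cargo receptor NBR1 was 2.997-fold higher (edgeR log2 fold change 1.58, SE 0.15, adjusted p = 2.2e-04), GABARAPL1, which coats autophagosomes, 2.51-fold higher (edgeR log2 fold change 1.33, SE 0.18, adjusted p = 0.0012), and the cargo receptor SQSTM1 1.72-fold lower (edgeR log2 fold change -0.78, SE 0.15, adjusted p = 0.0045). The call for SQSTM1 was lost without 36 h replicate 2. Circadian clock genes gave 6 higher and 2 lower of 14, with RORA at log2 3.33 and NR1D1 at 1.91. For the lysosome and cathepsins list, higher calls numbered 4 under scaling by library total alone, without 36 h replicate 1 or without 36 h replicate 2. In the lysosome and cathepsins list, lower calls came to 1 without 36 h replicate 2, 2 without 36 h replicate 1, 3 under the GC-corrected fit and 4 by DESeq2 or by limma on log2 FPKM. On the autophagy list, the number called higher was 5 under scaling by library total alone or without 36 h replicate 1. For the circadian clock list, higher calls numbered 3 under scaling by library total alone, without 36 h replicate 1 or without 36 h replicate 2.

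Hypoxia targets rose in 18 of 26 cases and fell in 2 (median log2 0.76). These genes are induced by HIF-1 at low oxygen or by growth signalling. NDRG1, a stress-induced protein, stood at 77.9 and 82.3 CPM at 4 h and 595 and 642 CPM at 36 h (edgeR log2 fold change 2.95, SE 0.16, adjusted p = 1.7e-05). SLC2A3, the glucose transporter GLUT3, stood at 16.8 and 17.5 CPM at 4 h and 97.8 and 92.8 CPM at 36 h (edgeR log2 fold change 2.47, SE 0.16, adjusted p = 4.5e-05), EGLN3, an oxygen-sensing prolyl hydroxylase, at 3.32 and 4.73 CPM at 4 h and 26.6 and 31.9 CPM at 36 h (edgeR log2 fold change 2.85, SE 0.24, adjusted p = 1.4e-04), and LOX, which cross-links collagen, at 39.5 and 27.97 CPM at 4 h and 178 and 309 CPM at 36 h (edgeR log2 fold change 2.85, SE 0.30, adjusted p = 3.4e-04). HIF1A itself was 2.47-fold higher (edgeR log2 fold change 1.30, SE 0.15, adjusted p = 6.2e-04). Of 20 glycolysis genes 6 were higher and 4 lower (median log2 -0.04). ENO2 (log2 2.93) rose and GPI (log2 -1.08) fell. In the glycolysis list, higher calls came to 2 under scaling by library total alone or without 36 h replicate 2 and 3 by limma on log2 FPKM or without 36 h replicate 1. On the glycolysis list, the number called lower was 1 without 36 h replicate 2 and 2 without 36 h replicate 1.

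DNA replication genes mostly fell. Mitotic genes were called higher in 17.9% of cases and lower in 10.3%, against 19.6% and 21.3% over all rows. Of 46 measured genes on the list of DNA replication and S phase, 27 were lower, 0 higher and 19 not called (median log2 -0.77). CCNE2, the cyclin of S-phase entry, stood at 20.8 and 19.2 CPM at 4 h and 4.15 and 4.93 CPM at 36 h (edgeR log2 fold change -2.15, SE 0.21, adjusted p = 2.4e-04). CDC6, which loads the replicative helicase, stood at 49.96 and 54.00 CPM at 4 h and 16.5 and 16.8 CPM at 36 h (edgeR log2 fold change -1.65, SE 0.16, adjusted p = 2.7e-04), E2F1 at 11.7 and 10.1 CPM at 4 h and 2.27 and 2.56 CPM at 36 h (edgeR log2 fold change -2.19, SE 0.23, adjusted p = 3.7e-04) and the helicase subunit MCM2 at 113 and 124 CPM at 4 h and 45.1 and 42.9 CPM at 36 h (edgeR log2 fold change -1.43, SE 0.15, adjusted p = 3.9e-04). The sliding clamp PCNA was 2.78-fold lower (edgeR log2 fold change -1.47, SE 0.18, adjusted p = 6.2e-04). All 5 were lower in both late libraries, as were 37.8% of all rows. The 12 h library of these 5 genes stood above the 4 h libraries, at 93.2 CPM for CDC6 and 194 CPM for MCM2. Of 39 mitosis and spindle genes 7 were higher, 4 lower and 28 not called (median log2 0.19). The kinetochore motor CENPE was 2.01-fold higher (edgeR log2 fold change 1.01, SE 0.15, adjusted p = 0.0017) and the checkpoint kinase TTK 1.79-fold higher (edgeR log2 fold change 0.84, SE 0.16, adjusted p = 0.0050), while the anaphase activator CDC20 was 1.78-fold lower (edgeR log2 fold change -0.83, SE 0.16, adjusted p = 0.0059), a call lost without 36 h replicate 2. On the mitosis and spindle list, the number called higher was 2 without 36 h replicate 2, 3 under scaling by library total alone and 18 without 4 h replicate 2. For the mitosis and spindle list, lower calls numbered 1 without 36 h replicate 1 or without 36 h replicate 2, 7 without a filter on low values and 8 under scaling by library total alone.

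Replication histone genes, whose transcripts lack polyA tails and are therefore caught only in part by polyA selection, gave 14 lower and 1 higher of 56 (median log2 -0.40). HIST1H4H stood at 88.3 and 180.4 CPM at 4 h and 43.4 and 33.8 CPM at 36 h (edgeR log2 fold change -1.80, SE 0.32, adjusted p = 0.0037), with a wide gap between the 4 h libraries. With other settings, lower calls numbered 9 under the GC-corrected fit or without 36 h replicate 2, 22 under scaling by library total alone, 25 without a filter on low values, 28 in the authors' deposited table and 37 without 4 h replicate 1. Of cyclin D and CDK inhibitor genes 3 of 13 rose and 6 fell. CCND3 (log2 -1.04), CDK4 (log2 -0.93) and the pocket protein RBL1 (log2 -1.08) fell, and the CDK inhibitor CDKN2D (log2 2.06) and the pocket protein of quiescent cells RBL2 (log2 0.83) rose. p53 targets gave 3 higher and 9 lower of 23, with C12orf5 (TIGAR) at log2 -1.90 and PLK2 at -1.75. The count called lower was 5 without 36 h replicate 2. In the BCL2 family 3 of 13 were higher and 3 lower, 23.1% each way and near the 19.6% and 21.3% over all rows. MCL1, the short-lived survival protein, stood at 991 and 1101 CPM at 4 h and 4201 and 4513 CPM at 36 h (edgeR log2 fold change 2.06, SE 0.17, adjusted p = 1.3e-04). BMF, a pro-apoptotic BH3-only gene, had 3 fragments at 4 h and 148 fragments at 36 h, summed over the libraries of each time, a ratio of 67.7 (95% interval 22.7 to 332, counting error only).

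Genes of ribosome assembly mostly fell, and more cytosolic ribosomal protein genes rose than fell, in numbers that varied widely with the method. Of 57 ribosome biogenesis genes 33 were lower and 2 higher (median log2 -0.60). RRP12, an export factor of pre-ribosomes, stood at 118 and 106 CPM at 4 h and 35.8 and 27.02 CPM at 36 h (edgeR log2 fold change -1.82, SE 0.19, adjusted p = 3.3e-04), and PNO1, a small-subunit assembly factor, at 53.2 and 64.6 CPM at 4 h and 18.1 and 17.4 CPM at 36 h (edgeR log2 fold change -1.73, SE 0.18, adjusted p = 3.3e-04). Cytosolic ribosomal protein genes gave 46 higher and 1 lower of 74 (median log2 0.62). RPL28 stood at 49.02 and 43.8 CPM at 4 h and 117 and 126 CPM at 36 h (edgeR log2 fold change 1.39, SE 0.16, adjusted p = 4.9e-04) and RPL11 at 258 and 324 CPM at 4 h and 628 and 602 CPM at 36 h (edgeR log2 fold change 1.08, SE 0.17, adjusted p = 0.0021). The number called higher came to 8 by limma on log2 FPKM, 13 without 36 h replicate 2, 18 under scaling by library total alone and 30 without 36 h replicate 1. These genes have many processed pseudogenes, and the part of that homology in the counts was not tested. Mitochondrial ribosomal protein genes fell in 21 of 54 cases and rose in 1 (median log2 -0.37), MRPL4 by 2.58-fold among them. That count of lower calls was 4 without 36 h replicate 1, 9 without 36 h replicate 2 and 33 under scaling by library total alone. MYC, which drives ribosome production, was 1.89-fold lower (edgeR log2 fold change -0.92, SE 0.20, adjusted p = 0.0080), a call lost when either 36 h library was left out.

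Genes of the ATF4 amino acid response, which supply amino acids when they are scarce, fell in 14 of 26 cases and rose in 3 (median log2 -0.74). ASNS, asparagine synthetase, stood at 42.3 and 38.4 CPM at 4 h and 8.11 and 10.05 CPM at 36 h (edgeR log2 fold change -2.16, SE 0.19, adjusted p = 1.8e-04). The serine pathway enzymes PHGDH and PSAT1 were 3.86-fold and 3.35-fold lower, at 60.5 and 74.1 CPM at 4 h and 19.3 and 15.4 CPM at 36 h for PHGDH (edgeR log2 fold change -1.95, SE 0.20, adjusted p = 2.9e-04). SLC7A5 stood at 196 and 146 CPM at 4 h and 18.97 and 15.4 CPM at 36 h (edgeR log2 fold change -3.31, SE 0.22, adjusted p = 4.4e-05) and its partner chain SLC3A2 at 316 and 395 CPM at 4 h and 90.1 and 89.3 CPM at 36 h (edgeR log2 fold change -1.99, SE 0.17, adjusted p = 1.4e-04). Both chains of this leucine transporter were lower in both late libraries, as were 37.8% of all rows. SLC1A5, the glutamine carrier, was 2.91-fold lower (edgeR log2 fold change -1.54, SE 0.17, adjusted p = 4.9e-04), while SLC39A8, a zinc and manganese carrier, was 7.48-fold higher (edgeR log2 fold change 2.90, SE 0.20, adjusted p = 5.4e-05). Aminoacyl-tRNA synthetase genes gave 9 lower and 1 higher of 27. With other settings, lower calls numbered 4 without 36 h replicate 2, 5 without 36 h replicate 1 and 15 under scaling by library total alone. The ASNS promoter, known for its amino acid response element, is shown because it holds the ATF4 letters TGATGNAA, searched on both strands. A window of SLC3A2 holds them too, and those of SLC7A5 and PHGDH and the other window of ASNS do not. The letters occurred in 10 of the 195 windows of genes that fell by 4-fold or more (5.1%) and in 3.8% of the windows of genes that rose by as much. They occurred in 2.0% of the windows of all genes tested and in 3.6% of those of the whole table. At a 2-fold limit the shares were 2.3% of the windows of falling genes and 2.7% of those of rising genes. The part of window GC content in these shares was not tested. The match is in capitals in the RefSeq window of GRCh38.p14.
ASNS promoter (chr7:97872359-97872658, minus strand): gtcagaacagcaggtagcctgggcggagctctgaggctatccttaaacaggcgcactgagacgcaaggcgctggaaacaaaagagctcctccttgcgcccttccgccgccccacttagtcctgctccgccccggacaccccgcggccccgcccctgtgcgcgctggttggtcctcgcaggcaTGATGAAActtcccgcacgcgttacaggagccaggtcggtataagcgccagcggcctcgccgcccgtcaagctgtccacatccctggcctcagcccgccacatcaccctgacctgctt

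Antioxidant and detoxifying enzymes mostly fell. Of 23 NRF2 antioxidant genes 16 were lower and 1 higher (median log2 -0.92), and of 14 aldehyde and retinoid enzymes 9 were lower and 1 higher (median log2 -0.92). NQO1, a quinone reductase, stood at 557 and 683 CPM at 4 h and 112 and 139 CPM at 36 h (edgeR log2 fold change -2.31, SE 0.19, adjusted p = 1.2e-04). GCLC, which catalyses the limiting step of glutathione synthesis, stood at 147 and 167 CPM at 4 h and 58.7 and 46.9 CPM at 36 h (edgeR log2 fold change -1.57, SE 0.17, adjusted p = 4.6e-04), and TXNRD1, thioredoxin reductase, at 190.2 and 251 CPM at 4 h and 81.2 and 74.3 CPM at 36 h (edgeR log2 fold change -1.50, SE 0.18, adjusted p = 6.7e-04). FTL, the iron-storing ferritin light chain, was 2.94-fold lower (edgeR log2 fold change -1.55, SE 0.15, adjusted p = 2.5e-04). SOD2, the mitochondrial superoxide dismutase that NF-kB induces, went the other way and stood at 1117 and 1509 CPM at 4 h and 4379 and 4797 CPM at 36 h (edgeR log2 fold change 1.80, SE 0.20, adjusted p = 4.6e-04). MT1X and MT1F, metallothioneins that bind zinc and copper, rose by 12.9-fold and 18.5-fold, with 92.2 and 127 CPM at 4 h and 1137 and 1703 CPM at 36 h for MT1X (edgeR log2 fold change 3.69, SE 0.26, adjusted p = 6.4e-05). The metallothionein paralog MT1E was not called (edgeR log2 fold change 0.32, SE 0.16, adjusted p = 0.14), and fragments may be shared among these near-identical genes.

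Citrate cycle and pentose phosphate genes fell in 11 of 22 cases and rose in 2 (median log2 -0.48), and nuclear genes of oxidative phosphorylation fell in 15 of 54 and rose in 1 (median log2 -0.22). FH, fumarase, was 2.21-fold lower (edgeR log2 fold change -1.14, SE 0.17, adjusted p = 0.0017), and ATP5G3, a subunit of ATP synthase, 2.12-fold lower (edgeR log2 fold change -1.08, SE 0.18, adjusted p = 0.0026). On the citrate cycle and pentose phosphate list, the number called lower was 2 without 36 h replicate 2, 3 without 36 h replicate 1 and 7 by limma on log2 FPKM. For the oxidative phosphorylation, nuclear list, lower calls numbered 5 without 36 h replicate 1, 8 without 36 h replicate 2 and 24 without 4 h replicate 1. Sterol genes gave 9 higher and 5 lower of 26. The number called lower came to 2 under the GC-corrected fit, without 36 h replicate 1 or without 36 h replicate 2 and 9 under scaling by library total alone. ABCA1, which exports cholesterol, stood at 3.79 and 5.28 CPM at 4 h and 192 and 184 CPM at 36 h (edgeR log2 fold change 5.36, SE 0.22, adjusted p = 6.9e-06). Fatty acid synthesis genes gave 3 higher and 7 lower of 17. ACLY, which makes cytosolic acetyl-CoA, was 2.65-fold lower (edgeR log2 fold change -1.41, SE 0.19, adjusted p = 0.0011) and FADS2, a desaturase, 2.57-fold lower (edgeR log2 fold change -1.36, SE 0.15, adjusted p = 4.2e-04). That count of lower calls was 4 by limma on log2 FPKM or without 36 h replicate 2.

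Protein quality control genes differed by list. Lower calls made up 35.5% of proteasome genes, 22.6% of heat shock and chaperone genes and 8% of endoplasmic reticulum folding genes, against 21.3% over all rows. Higher calls made up 3.2%, 0% and 12%, against 19.6% over all rows. Proteasome genes gave 11 lower and 1 higher of 31 (median log2 -0.25), heat shock and chaperone genes 7 lower and 0 higher of 31 (median log2 -0.27), and endoplasmic reticulum folding genes 2 lower and 3 higher of 25 (median log2 -0.04). In the last list 20 genes were not called. The proteasome activator PSME3 was 2.92-fold lower (edgeR log2 fold change -1.54, SE 0.17, adjusted p = 3.9e-04), and HSP90B1, a chaperone of the endoplasmic reticulum, 1.90-fold higher (edgeR log2 fold change 0.93, SE 0.16, adjusted p = 0.0032). On the proteasome list, the number called lower was 3 without 36 h replicate 1 and 4 without 36 h replicate 2. For the heat shock and cytosolic chaperones list, lower calls numbered 3 without 36 h replicate 2, 4 by limma on log2 FPKM or without 36 h replicate 1, 11 without a filter on low values, 13 without 4 h replicate 1 and 17 under scaling by library total alone. Splicing factors gave 9 higher (28.1%) and 8 lower (25%) of 32, beside 19.6% and 21.3% over all rows. The count called lower was 14 under scaling by library total alone. The splicing factor kinases CLK1 (log2 1.37) and CLK4 (log2 1.19) rose, and their substrates SFRS2 (SRSF2, log2 -1.44) and SFRS6 (SRSF6, log2 -1.65) fell. ESRP2, an epithelial splicing regulator, was 2.30-fold lower (edgeR log2 fold change -1.20, SE 0.17, adjusted p = 0.0012).

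More lincRNA rows rose than fell on the TMM scale, an order that turned with scaling by library total alone (520 higher, 666 lower). Of 3637 lincRNA rows tested 769 were higher (21.1%) and 420 lower (11.5%), with a median log2 fold change of 0.16, and 516 rose (14.2%) and 257 fell (7.07%) by 2-fold or more. Of 10757 rows with 1 gene symbol 2076 were higher (19.3%) and 2651 lower (24.6%), with a median of -0.09, and 985 rose (9.16%) and 1193 fell (11.1%) by 2-fold or more. The difference between the 2 kinds of row was not tested. Levels were low, the median lincRNA row standing at 1.54 FPKM at 4 h and 1.68 FPKM at 36 h against 11.7 and 11.2 FPKM for gene rows. A row near the level threshold could enter through its level at 1 time alone. The part of that rule in the balance of rises and falls was not tested. With no filter on low values 1343 lincRNA rows were higher and 978 lower. Without 4 h replicate 2, 806 lincRNA rows were higher and 765 lower. With 36 h replicate 1 left out, 500 rows were higher and 254 lower, and with 36 h replicate 2 left out 531 and 216. The authors' deposited table called 351 higher and 244 lower. The largest rises were sought among called rows with at least 1 FPKM at their higher time and no overlap between the libraries of the 2 times. They were of linc-LSAMP-5, linc-ADD3-5, linc-CCKAR-7, linc-ATG2B-4 and linc-PCDH7-6. linc-ADD3-5 (chr10:107853184-107959138 in hg19) had 0 fragments at 4 h and 47 fragments at 36 h, summed over the libraries of each time, at least 21.5-fold higher with 3 fragments over the group taken as the limit of a count of 0. linc-ATG2B-4 (chr14:98285101-98293885) had 1 fragment at 4 h and 227 fragments at 36 h, summed over the libraries of each time, a ratio of 312 (95% interval 55.4 to 12363, counting error only). linc-PCDH7-6 stood at 0.156 and 0.0423 CPM at 4 h and 24.3 and 23.04 CPM at 36 h (edgeR log2 fold change 7.91, SE 0.39, adjusted p = 1.2e-05). It and linc-CCKAR-7 carry the same deposited locus (chr4:28312616-28626029), so their fragments may be shared.

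**Figure D4:**
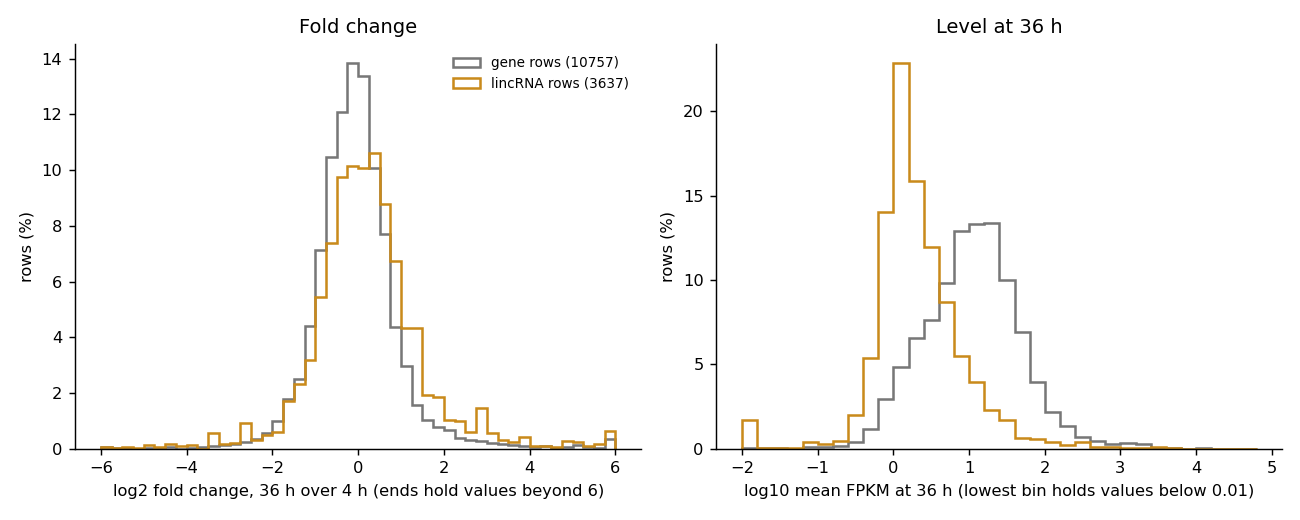
Distribution of log2 fold change of 36 h over 4 h (left, in bins of 0.25, percent of rows) and of log10 mean FPKM at 36 h (right) for 10757 gene rows (grey) and 3637 lincRNA rows (orange). The lincRNA rows have their median at 0.16 and gene rows at -0.09, and lincRNA rows lie lower in level.

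Among lincRNA rows that fell, linc-IL6-AS lies antisense to IL6 by its name and stood at 7.95 and 15.7 CPM at 4 h and 0.434 and 0.379 CPM at 36 h (edgeR log2 fold change -4.82, SE 0.47, adjusted p = 2.6e-04). IL6 itself had a log2 fold change of -4.84. Whether counting used strand is not given in the sources used here, so fragments of the pair cannot be told apart. linc-NHS-AS had 118 fragments at 4 h and 2 fragments at 36 h, summed over the libraries of each time, a ratio of 42.97 (95% interval 11.6 to 359, counting error only). linc-SCARA3-AS had 37 fragments at 4 h and 0 fragments at 36 h, summed over the libraries of each time, at least 8.98-fold lower.

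By level per length (mean FPKM, rows with 1 gene symbol), TMSB10 and GAPDH were among the 10 most abundant genes at both times. KRT5 and KRT17 were among them at 4 h, and S100A9, S100A8, MT1X, TPT1 and SOD2 at 36 h. MT1X stood at 777 and 1045 FPKM at 4 h and 6965 and 14187 FPKM at 36 h, and TPT1, the growth-linked protein TCTP, at 1557 and 1611 FPKM at 4 h and 3794 and 4877 FPKM at 36 h. KRT5 stood at 2718 and 2776 FPKM at 4 h and 1063 and 1022 FPKM at 36 h, and THBS1 at 1011 and 913 FPKM at 4 h and 131 and 122 FPKM at 36 h. SERPINB1 stood at 147 and 144 FPKM at 4 h and 2116 and 2648 FPKM at 36 h, which placed it above KRT17, at 2328 and 2379 FPKM at 4 h and 804 and 821 FPKM at 36 h, only in the late libraries. FPKM and fragment counts can differ. RPL10 stood at 169.6 and 186 FPKM at 4 h and 19546 and 9366 FPKM at 36 h, but at 356 and 381 CPM at 4 h and 499.6 and 430.2 CPM at 36 h and was not called (edgeR log2 fold change 0.34, SE 0.16, adjusted p = 0.12). Fold changes and tests were therefore taken from fragments.

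Called genes differed in base composition, as read from GENCODE v29 transcripts for 10541 of 10688 genes. Of genes that rose by 2-fold or more the median transcript had 45.4% G and C, of those that fell by as much 55.4%, and of those not called 47.3%. Median transcript length was 3880, 3036.5 and 3391 bases. With genes of at least 1 CPM on average split into 5 groups by GC content, 30.3% of the lowest group were higher and 10.2% lower, and 9.27% of the highest group were higher and 41.0% lower. The median log2 fold change went from 0.21 in the lowest group over 0.07, -0.10 and -0.27 to -0.48 in the highest. Between the 2 libraries of 36 h the same medians ran from 0.08 to -0.06, and between those of 4 h from 0.13 to -0.05. From the 4 h libraries to the 0 h library they ran from 0.16 to -0.23, and from the 4 h libraries to the 12 h library they were -0.07, -0.05, -0.03, 0.0027 and -0.03. A fit with a GC term for each library, chosen after the data were seen, brought the 5 medians to between -0.09 and -0.04. It called 2827 rows higher and 2819 lower. Under it the counts for the main lists were 12 of 16 higher for acute-phase genes, 19 of 24 for FOXO genes, 17 of 26 for hypoxia targets and 46 of 74 for cytosolic ribosomal proteins. For lists that fell they were 29 of 46 lower for DNA replication, 15 of 23 for NRF2 genes, 14 of 26 for the ATF4 response, 30 of 57 for ribosome biogenesis, 11 of 19 for tight junctions and 10 of 20 for YAP/TAZ targets. Each of these counts was within 1.5 times that of the fit without a GC term.

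**Figure D5:**
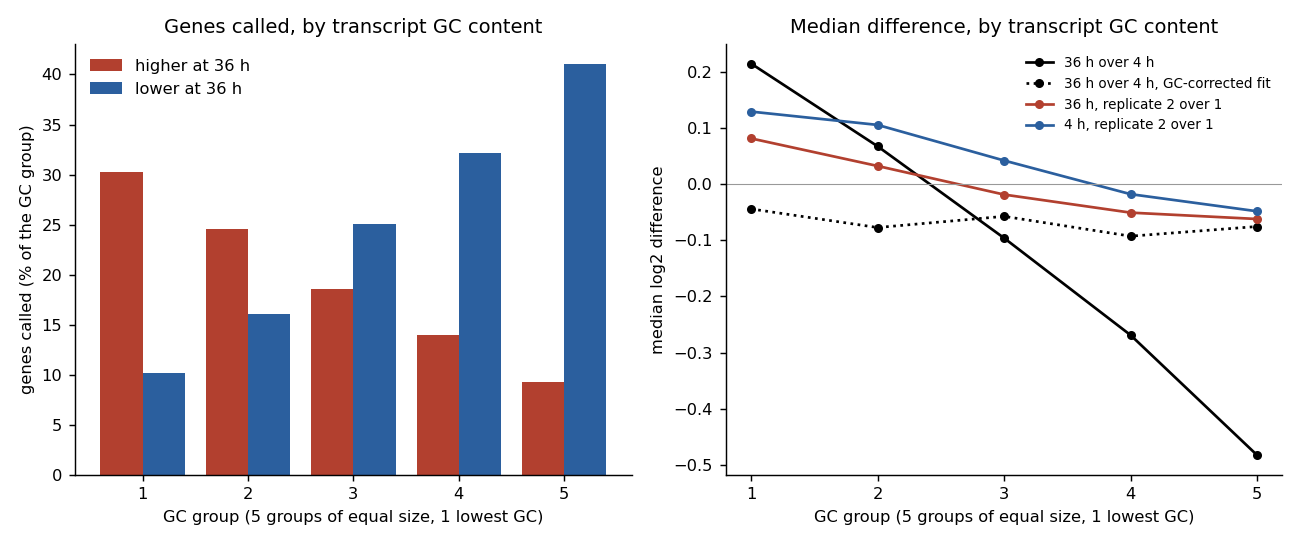
Genes called higher (red) and lower (blue) at 36 h as a percent of each of 5 GC groups (left), and the median log2 difference by GC group (right) for 36 h over 4 h without (solid black) and with (dotted black) a GC term and between the replicates of 36 h (red) and 4 h (blue). Without the term the median falls from 0.21 to -0.48 with rising GC content, and with it the medians stay between -0.09 and -0.04.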

How the data were processed

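PolyA-selected RNA of 6 time-course libraries of MCF10A-Src cells was analysed, with groups taken from the sample labels. CASAVA 1.4, TopHat, Cuffdiff and the hg19 build are named in the submitters' processing notes. Other versions, the annotation and the use of strand are not given in the sources used here. The deposited table gives, per the file headers, raw fragments, treated as estimated counts made by the authors, and FPKM per library after Cuffdiff's scaling of the libraries to each other. The authors' deposited comparison table gives a log2 column (treated as a score, since it holds entries beyond the range of a log scale) with p-values and q-values. Its calls serve only as an alternative.

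The members and gene lists were chosen with earlier results of these data known. Estimated counts were rounded and tested with edgeR 4.0.16 (quasi-likelihood, TMM scaling, 1 coefficient per time over all 6 libraries, 2 residual degrees of freedom), with Benjamini-Hochberg adjustment over 15098 rows and a threshold of 0.05. The single libraries at 0 h and 12 h are assumed to vary like the others, and comparisons with them would share the 4 h and 36 h libraries. Counts were also simulated for the 4 h and 36 h libraries alone, with 1 common spread for all rows, and fitted without the 0 h and 12 h libraries. There the test recovered 68% of 2-fold and 100% of 4-fold changes (100 genes each). The changed genes all had 100 or more fragments over these libraries, so recovery for rows with fewer fragments or a larger spread was not measured. Genes were named by rule: the 12 largest called rises and falls with a mean of 10 FPKM or more at the higher time, 5 called lincRNA rows each way, the 5 smallest p of each list, the 10 most abundant genes at each time and the 10 largest FPKM differences each way. In the largest rises and falls and the lincRNA rows, the libraries of the 2 times also had to be free of overlap. The lincRNA rows needed a mean of 1 FPKM or more at their higher time. BCL6, CDC42EP2, CDH2, CDK4, CFI, CTGF, CYR61, HIF1A, IFIT5, PCNA, PSAT1, SQSTM1, TWIST1 and TXNRD1 were chosen after their values were seen. Rows with several symbols entered no list. Intervals and limits for near-absent genes cover counting error only. Alternatives were other scalings, filters, tools (DESeq2, limma) and left-out libraries, and a GC correction chosen after seeing the data. Some genes and gene lists are not reported here.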

Additional observations from a re-analysis of the deposited data

How the results depend on the processing

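Scaling by library total alone gave 1865 rows higher and 4850 lower, with 520 lincRNA rows higher and 666 lower, the only setting that turned their order. Without a filter on low values 1343 lincRNA rows were higher and 978 lower, as 26718 rows in all were then tested. The authors' deposited table called 351 lincRNA rows higher and 244 lower, and the cause was not tested. Leaving out each library in turn gave 1796 to 3582 rows higher, 1581 to 3760 lower, 500 to 1130 lincRNA rows higher and 216 to 765 lower. With 1 library left at a time point, that library is assumed to vary like the others. Replicate numbers are not known to mark a shared culture, and the deviations of same-numbered libraries correlated at 0.085 across genes. A fit with the replicate number as a block called 3350 rows higher and 3386 lower, and 911 and 507 lincRNA rows. DESeq2, limma, other scalings, a stricter filter, the fit of the 4 h and 36 h libraries alone and the GC correction (chosen after seeing the data) kept all 4 counts within 1.5 times. Of 398 named genes, none changed direction with a call. Fewest kept their side of the threshold without 36 h replicate 2 (349), in the authors' deposited table (350 of 391 with a value) and without 36 h replicate 1 (360). Depth limits genes near 0 at either time, whose ratios have wide intervals.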
